A study of Mus musculus with 96 samples.

Results

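Mitochondrial ribosomal protein genes encode the proteins of the ribosome inside mitochondria, and their mRNAs were followed across the day in mouse heart ventricle. Members were the entries of the gene count table whose symbol begins with Mrpl or Mrps and a number, without the pseudogene suffix -ps, and whose mean over all 96 libraries was at least 1 CPM (counts scaled to the library total). This gave 77 members among the 55376 entries of the table, 48 with an Mrpl and 29 with an Mrps symbol. All 77 had an entry in the GENCODE M21 annotation and all 77 passed the filter on low counts that left 15629 tested genes.

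The RNA came from mice that all carried iCSBmal1 KO, an inducible knockout of the clock gene Bmal1 (symbol Arntl) restricted to cardiomyocytes, the muscle cells of the heart. The 4 groups of 24 libraries were tamoxifen females, vehicle females, tamoxifen males and vehicle males. Tamoxifen switches the knockout on, so the vehicle mice carried the same alleles without induction, and the drug and the knockout cannot be told apart. Each group had 2 libraries at each of 12 circadian times (ct), every 4 h between ct 18 and ct 62. The numbers in the library titles interleave between the tamoxifen groups, while each vehicle group has a number range of its own. What these numbers stand for is not stated. Sex in vehicle hearts, and tamoxifen within a sex, therefore cannot be told apart from the number ranges. Separate animals are not stated for the libraries of a group, and p-values therefore cover only library-to-library spread, which may be technical. In a piece of ventricle, fewer cells of a type and less RNA per cell cannot be told apart.

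The mitochondrial ribosome makes the few proteins encoded by mitochondrial DNA, all of them parts of the respiratory chain and ATP synthase on which the heart depends. Its proteins are encoded in the nucleus, made in the cytosol and imported. Some are relatives of bacterial ribosomal proteins, while others were added during the evolution of mitochondria. BMAL1 and its partner CLOCK bind the E-box motif and drive daily transcription of their targets.

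Library totals ran between 8944955 and 20596194 counts. Arntl, the targeted gene, ran between 2.85 and 28.3 CPM in tamoxifen females and between 0.992 and 56.3 CPM in vehicle females. It ran between 1.31 and 31.7 CPM in tamoxifen males and between 1.27 and 48.3 CPM in vehicle males. The log2 amplitude of its 24 h rhythm was 0.87 ± 0.14 in tamoxifen females, against 2.38 ± 0.16 in vehicle females, and 0.87 ± 0.14 in tamoxifen males, against 2.05 ± 0.16 in vehicle males (SE, n = 24 each). The rhythm differed with tamoxifen in females (edgeR quasi-likelihood test, Benjamini-Hochberg adjusted p = 1.186e-05) and in males (adjusted p = 0.0006306). Mean Arntl CPM was lower with tamoxifen, at 17.3 against 20.8 in vehicle females and 14.7 against 16.8 in vehicle males. The log2 mean of the fit over the day was instead higher, by 0.44 ± 0.15 in females (adjusted p = 0.01948) and 0.36 ± 0.15 in males (adjusted p = 0.02869). The log2 direction is not the one a knockout label implies, and the direction thus depends on the scale. Neither call held in every setting, with an adjusted p of 0.0528 in females and 0.133 in males by limma voom, 0.0827 in females without the high-Myl7 libraries, and 0.199 in males without the high-TEC libraries, both described next. Counts cover the whole gene, so a level does not show whether a deleted stretch was present. In 5 tamoxifen libraries Arntl was under 6 CPM. A library labelled tamoxifen female at ct 54 had 0.272 CPM of the female-specific Xist and 11.3 CPM of the Y-linked Ddx3y, against its label. Atrial Myl7 was over 20 CPM in 13 libraries. In 10 vehicle male libraries the share of counts in TEC genes was above that of every other library, with the highest at 0.19%. TEC genes are loci the annotation lists as still to be tested by experiment. These 10 libraries were both of the pairs at ct 30 and ct 34, and single libraries at ct 26, 38, 42, 54, 58 and 62. Leaving them out thus empties ct 30 and ct 34 in vehicle males. Cardiomyocyte markers summed to medians of 43030 CPM in tamoxifen females, 41740 CPM in vehicle females, 41720 CPM in tamoxifen males and 41450 CPM in vehicle males.

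Promoters are shown for 4 of the members named below for large changes, picked so that together they hold all 4 motifs searched. Mrpl33, with the largest fall in males, is not shown, and no promoter was at hand for Mrps34, with the largest rise in females. The sequences are those of RefSeq for build GRCm38.p6, 250 bases before to 50 after the start of the gene, 5′ to 3′ on the gene's own strand, which is + for all of those shown. Mrpl20 (chr4:155802628-155802927) encodes a protein of the large subunit, whose bacterial relative is needed early in assembly, and Mrps18c (chr5:100798509-100798808) encodes a small-subunit protein. Mrps27 (chr13:99344536-99344835) encodes a small-subunit protein added in mitochondria, and Mrpl9 (chr3:94443086-94443385) a large-subunit protein of bacterial type. Capitals mark a match on either strand.
Mrpl20: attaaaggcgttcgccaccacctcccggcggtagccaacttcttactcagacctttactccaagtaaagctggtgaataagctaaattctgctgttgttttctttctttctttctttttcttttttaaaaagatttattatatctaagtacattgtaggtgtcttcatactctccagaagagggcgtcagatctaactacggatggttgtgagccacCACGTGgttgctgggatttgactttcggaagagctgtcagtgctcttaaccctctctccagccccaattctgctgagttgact
Mrps18c: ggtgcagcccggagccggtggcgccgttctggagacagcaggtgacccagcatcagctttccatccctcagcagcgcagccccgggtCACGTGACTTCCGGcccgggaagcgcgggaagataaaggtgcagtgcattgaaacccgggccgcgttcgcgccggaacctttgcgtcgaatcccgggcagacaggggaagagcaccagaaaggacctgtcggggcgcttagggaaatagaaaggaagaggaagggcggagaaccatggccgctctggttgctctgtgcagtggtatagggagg
Mrps27: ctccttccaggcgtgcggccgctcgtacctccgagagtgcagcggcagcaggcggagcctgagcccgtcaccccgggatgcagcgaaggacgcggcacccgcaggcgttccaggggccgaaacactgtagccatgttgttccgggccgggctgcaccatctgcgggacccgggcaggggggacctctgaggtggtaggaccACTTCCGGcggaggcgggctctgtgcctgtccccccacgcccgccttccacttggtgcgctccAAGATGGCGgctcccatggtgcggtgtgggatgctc
Mrpl9: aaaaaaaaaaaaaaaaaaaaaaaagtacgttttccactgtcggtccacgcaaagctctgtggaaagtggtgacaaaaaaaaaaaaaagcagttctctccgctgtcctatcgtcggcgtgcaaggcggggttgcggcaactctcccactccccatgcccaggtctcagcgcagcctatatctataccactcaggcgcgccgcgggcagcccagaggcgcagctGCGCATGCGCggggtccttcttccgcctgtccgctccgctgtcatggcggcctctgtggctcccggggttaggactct
The motifs were the E-box CACGTG, the NRF1 motif (the capitals in Mrpl9), the ETS motif CCGGAAGT and the YY1 motif AAGATGGCG, none of which holds another. In Mrps18c the E-box is followed directly by the ETS motif on the opposite strand.

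Promoter sequences were at hand for 68 members. An E-box was in 5 of the 68 (7.35%), namely Mrpl2, Mrpl20, Mrpl36, Mrpl37 and Mrps18c, and in 11.6% of the 10398 tested protein-coding genes with a promoter. The ETS motif was in 12 members (17.6%), against 8.77% of those genes. The YY1 motif was in 8 members (11.8%), against 3.40%, and the NRF1 motif in Mrpl32, Mrpl39 and Mrpl9 (4.41%), against 2.22%. Of all 27025 genes with a promoter, 8.09% held the E-box, 4.31% the ETS, 1.64% the YY1 and 1.07% the NRF1 motif. A match describes letters in this window only.

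Members differed widely in level. Mean CPM over all libraries ran between 7.87 for Mrps18c and 257 for Mrpl42, with a median of 53.7. The members nearest the threshold of 1 CPM were Mrps18c and, at 14.8 CPM, Mrps6, another small-subunit gene, both well above it. The only other matching entry without the suffix, Mrpl53, is listed at 0 counts in every library, and 88.0% of its exon bases also lie in exons of other genes on its strand. Per kilobase of annotated exon, the highest levels were 111 for Mrps23, 110 for Mrpl12, a protein of the ribosome's stalk, and 108 for Mrps21, in RPKM (CPM per kilobase). The lowest were 2.43 RPKM for Mrpl33, 3.30 RPKM for Mrps10 and 6.0 RPKM for Mrpl17, whose annotated exons add up to 7326, 8079 and 7605 bases. In 17 members over 10% of exon bases also lie in exons of another gene, among them Mrps34 with 77.8%, shared with Mapk8ip3 and Nme3, Mrps18c with 23.2% and Mrps27 with 24.2%. The strand setting of the counting is not given in the sources used here, so counts of these genes are uncertain.

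Across the day, the summary level of the members varied more between libraries in vehicle than in tamoxifen hearts. A summary level was taken per library as the mean over the 77 members of the log2 deviation from each gene's own mean over the 96 libraries. In tamoxifen females it ran between -0.16 and 0.29 with an SD of 0.091, and in vehicle females between -0.42 and 0.32 with an SD of 0.174. In tamoxifen males it ran between -0.14 and 0.32 with an SD of 0.094, and in vehicle males between -0.29 and 0.46 with an SD of 0.178. The groups overlapped.

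In vehicle females the highest pair stood at ct 42, with 0.175 and 0.318, and the lowest at ct 50, with -0.321 and -0.307. The libraries at ct 38, with 0.036 and 0.080, were next, and 1 library at ct 22 reached 0.138 while the other was at -0.312. The other vehicle female libraries were all below 0. In vehicle males the highest pair stood at ct 38, with 0.261 and 0.463, and the lowest at ct 26, with -0.289 and -0.040. After ct 26 all vehicle male libraries were above 0 except 1 of the pair at ct 62, at -0.162.

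**Figure D1:**
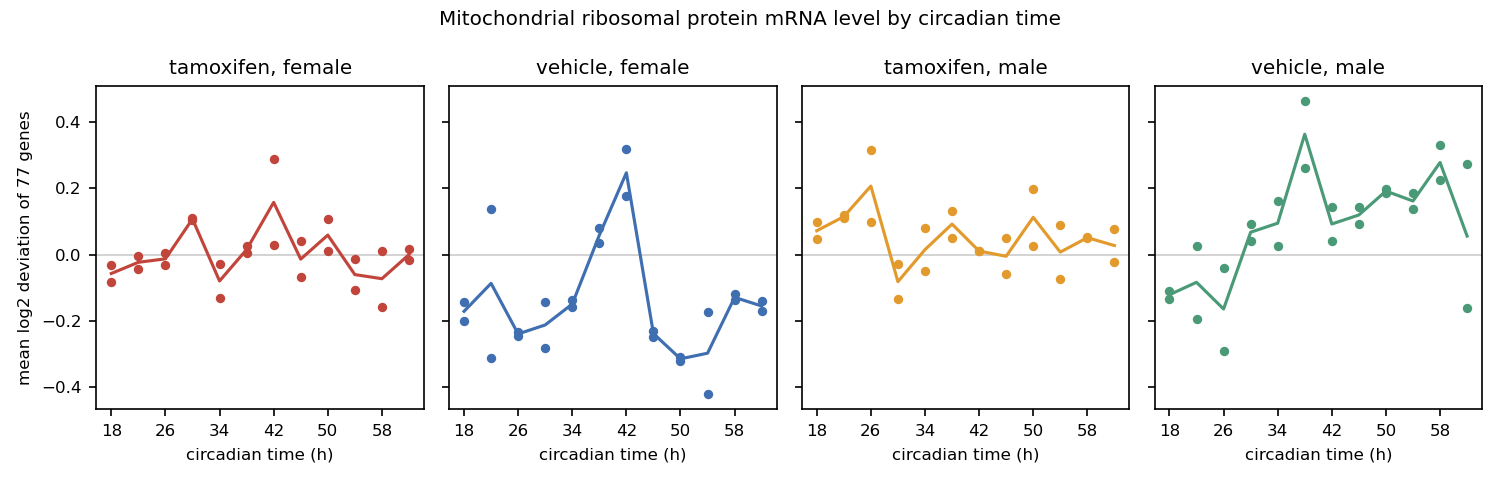
Summary level of the 77 mitochondrial ribosomal protein mRNAs (mean log2 deviation from each gene's mean over 96 libraries) against circadian time in hours, in tamoxifen females, vehicle females, tamoxifen males and vehicle males. Points are the 2 libraries at each time and lines join their means; vehicle females peak at ct 42 and vehicle males at ct 38, and the tamoxifen profiles are flatter.

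A 24 h cosine was fitted for every gene in each group with edgeR's quasi-likelihood test. The adjusted p was under 0.05, the rule for a call, for 0 of 77 members in tamoxifen females, where 17.1% of all tested genes were called. It was under 0.05 for 51 members in vehicle females, against 34.5% of all genes. In tamoxifen males 2 members were called, against 8.03% of all genes, and in vehicle males 45 (58.4%), close to the 55.2% of all genes. At an unadjusted p under 0.05 there were 1, 59, 3 and 51 members in the same order, against 30%, 44.6%, 20.9% and 60.7% of all genes. The 51 in vehicle males are 66.2% of the members. Median log2 amplitudes over the 77 members were 0.05 in tamoxifen females, 0.17 in vehicle females, 0.06 in tamoxifen males and 0.14 in vehicle males. Over all tested genes they were 0.12, 0.15, 0.10 and 0.20.

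The test of the change in rhythm itself gave a different count in each sex. In females it called 0 members at the adjusted threshold, where 0.237% of all genes were called, while 40 members (51.9%) and 15.5% of all genes had an unadjusted p under 0.05. In males it called 27 members, against 20.7% of all genes. Mrps18c, with a vector length (the log2 distance between the fitted rhythms) of 0.46 ± 0.12, Mrpl33 with 0.41 ± 0.10 and Mrpl52 with 0.39 ± 0.09 had the largest. Their adjusted p-values were 0.01644, 0.01163 and 0.004785. Without the 10 high-TEC libraries 13 members were called in males, against 2.56% of all genes, and these 3 no longer were (adjusted p 0.235, 0.113 and 0.127). No vehicle male library remained at ct 30 or ct 34 in that fit. The 2 members called in tamoxifen males were Mrps2, at 0.20 ± 0.05, and Mrpl19, at 0.14 ± 0.04, both proteins of bacterial type. Neither was called without the low-Arntl libraries and that of ct 54 (adjusted p 0.196 and 0.15).

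Mrps18c, Mrpl33 and Mrpl20 were among the 5 called members of largest amplitude in vehicle hearts of both sexes. In vehicle females Mrps18c had a log2 amplitude of 0.32 ± 0.09, a peak-to-trough fold of 1.57, followed by Mrpl20 with 0.28 ± 0.06, Mrps21 and Mrpl33 with 0.27 ± 0.06 and 0.27 ± 0.07, and Mrps6 with 0.25 ± 0.07. With a correction for gene length and GC content Mrps18c stood at 0.18 in vehicle females and was not called (adjusted p = 0.115). In vehicle males Mrps18c had 0.46 ± 0.09, a fold of 1.88, followed by Mrpl33 with 0.43 ± 0.07, Mrpl52 and Mrpl54 with 0.35 ± 0.06 and 0.35 ± 0.05, and Mrpl20 with 0.33 ± 0.05. Mrpl52 and Mrpl54 encode large-subunit proteins added in mitochondria. Of the 5 members with an E-box, 4 were called in vehicle females and 3 in vehicle males, against 40 and 37 of the 63 without.

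Mrpl20 shows these profiles in CPM. At ct 38 it stood at 43.8 and 44.6 CPM in tamoxifen females and 43.7 and 46.8 CPM in vehicle females, and at ct 50 at 42.1 and 46.6 CPM in tamoxifen females and 26.7 and 27.4 CPM in vehicle females. At ct 38 it stood at 41.9 and 45.1 CPM in tamoxifen males and 76.1 and 86.1 CPM in vehicle males, and at ct 18 at 45.1 and 45.2 CPM in tamoxifen males and 39.5 and 41.1 CPM in vehicle males. The tamoxifen libraries thus lay between the highest and lowest times of the vehicle profile at these times. Mrps18c reached 15.6 and 18.4 CPM at ct 34 in vehicle males, against 6.68 and 9.67 CPM in tamoxifen males at that time. Both of these vehicle male libraries were high-TEC libraries.

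**Figure D2:**
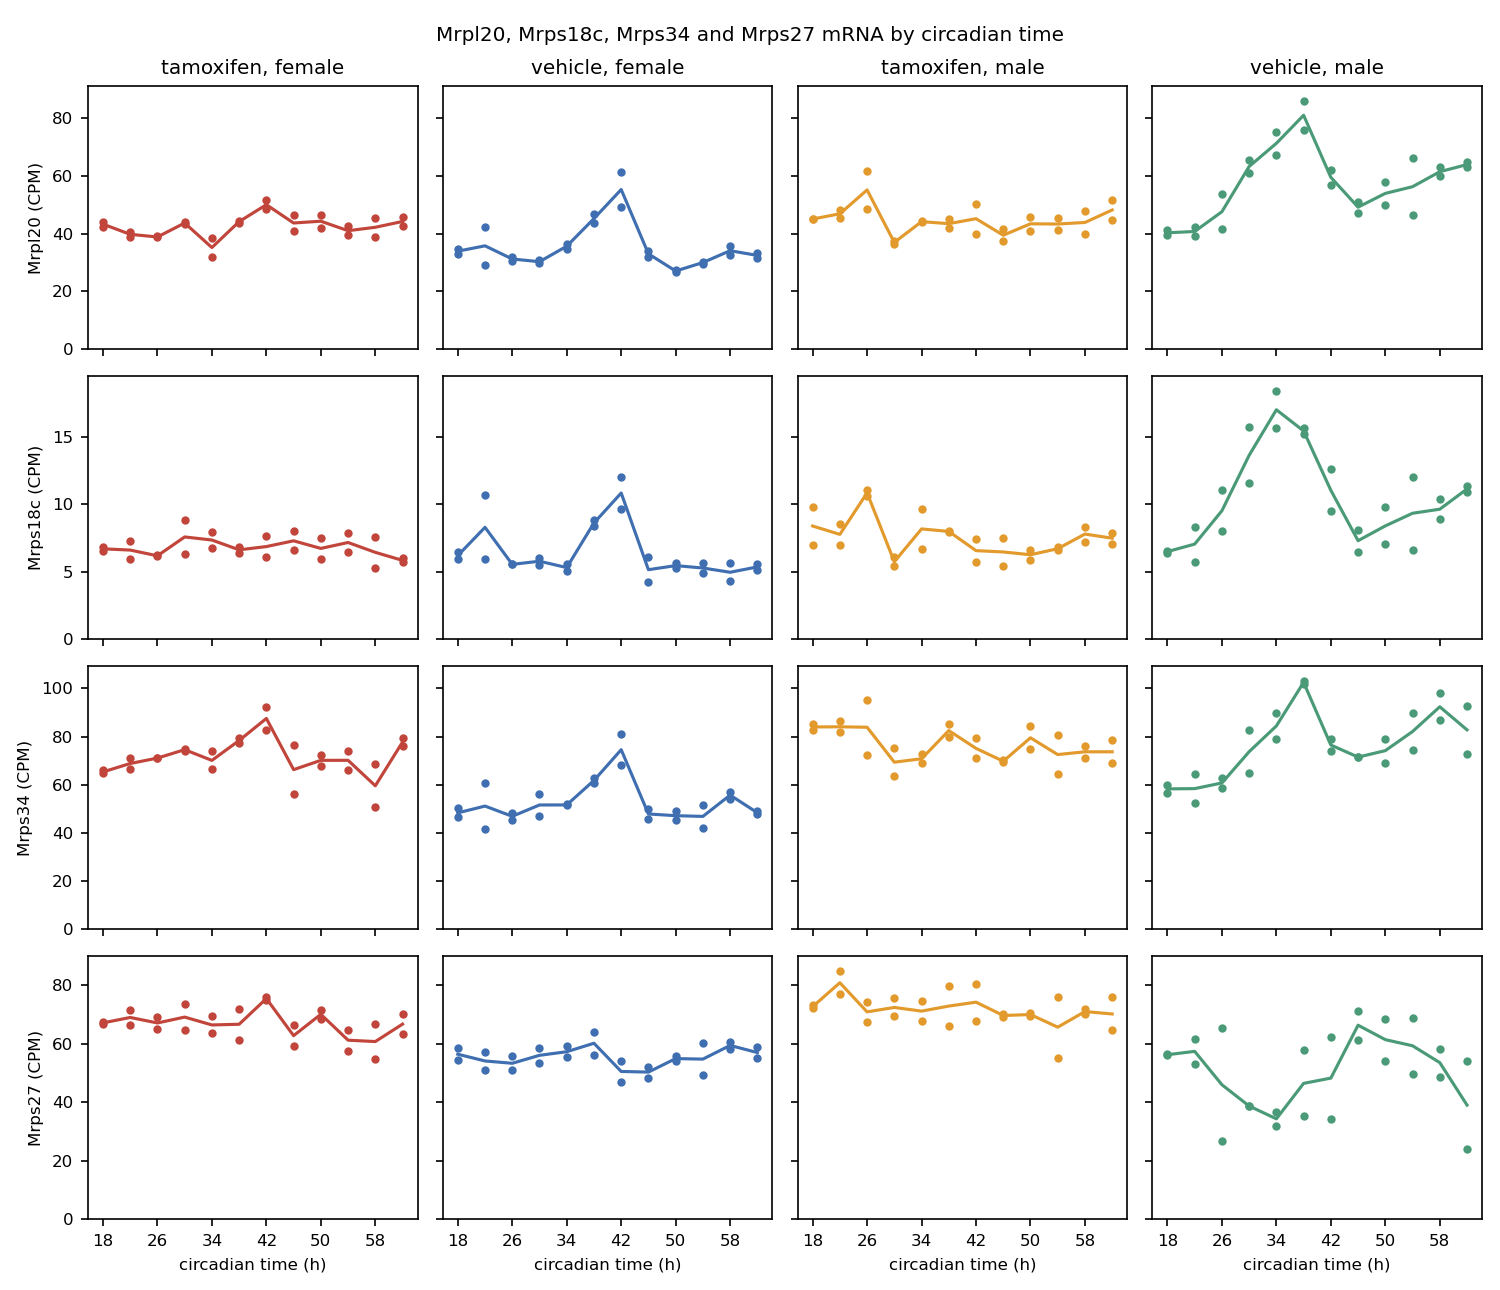
CPM of Mrpl20, Mrps18c, Mrps34 and Mrps27 (rows) against circadian time in hours in tamoxifen females, vehicle females, tamoxifen males and vehicle males (columns). Points are the 2 libraries at each time, lines join their means and each row has 1 scale starting at 0; Mrpl20 is highest at ct 38 in vehicle males and at ct 42 in vehicle females, and Mrps27 of vehicle males has several libraries below 40 CPM.

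Peak times of called members lay close together within a sex and apart between the sexes. In vehicle females 49 of the 51 called members peaked between ct 12 and ct 18, around a mean of ct 16.2, while 35.7% of all called genes peaked there. In vehicle males 39 of the 45 peaked between ct 6 and ct 12, where 41.3% of all called genes peaked, and 6 peaked between ct 18 and ct 24. The difference in rhythm between vehicle females and vehicle males was called for 42 members, against 37.4% of all genes. Mrps18c (0.66 ± 0.13, adjusted p = 0.0002366), Mrpl33 (0.60 ± 0.10, adjusted p = 0.0001166) and Mrpl52 (0.49 ± 0.09, adjusted p = 0.0001505) had the largest vector lengths. Among the 38 members called in both vehicle groups, 74.5% of those in females and 84.4% of those in males, the median peak was 5.81 h later in females. The matching overlap and shift over all genes are not given here.

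The counts of called rhythms differed between the first and the second day. Without ct 42, 13 members were called in vehicle females, against 23.8% of all genes. On the first 24 h alone 0 members were called there, against 8.09% of all genes, and on the second 47, against 24.9%. In vehicle males 70 were called on the first 24 h, against 58.7% of all genes, and 6 on the second, against 25.1%. A 12 h rhythm was called for 0 of 77 members in every group, with 0.0%, 0.0%, 0.0256% and 2.12% of all genes called in tamoxifen females, vehicle females, tamoxifen males and vehicle males. Unadjusted, 1, 0, 1 and 2 members had a p under 0.05.

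**Figure D3:**
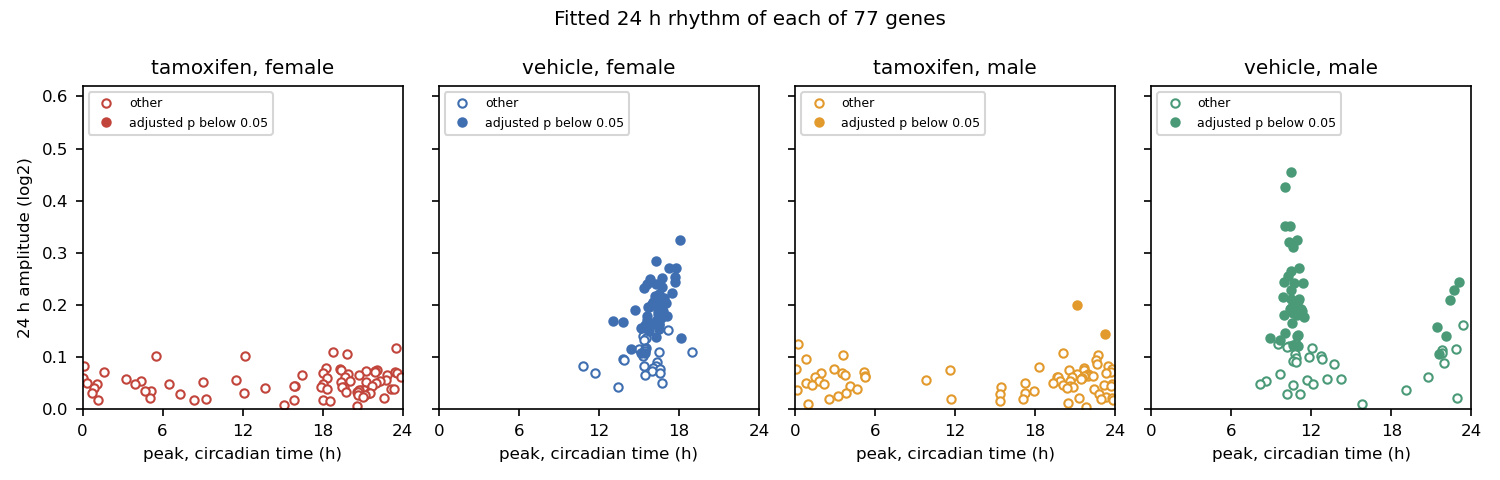
Log2 amplitude of the fitted 24 h rhythm against its peak in hours of circadian time, 1 point per member, in tamoxifen females, vehicle females, tamoxifen males and vehicle males. Filled points had an adjusted p under 0.05; called members gather around ct 16.2 in vehicle females and mostly between ct 6 and ct 12 in vehicle males, and amplitudes are smaller in the tamoxifen groups.

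In females, tamoxifen hearts held more mitochondrial ribosomal protein mRNA than vehicle hearts. Averaged over the day, 45 members were higher and 1 was lower (46 of 77), against 27.5% of all genes called, 15.2% higher and 12.3% lower. The median log2 difference over the members was 0.14, against 0.01 over all tested genes. The members' summed level was 5043 ± 332.9 CPM in tamoxifen females and 4603 ± 588.4 CPM in vehicle females (SD, n = 24 each). The ranges of the 2 groups separated for 0 of 77 members and for 3 of all 15629 genes. Of the 46 called, 18 of 29 large-subunit members of bacterial type, 10 of 21 large-subunit members added in mitochondria, 11 of 17 small-subunit members of bacterial type and 6 of 9 small-subunit members added in mitochondria were higher.

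Mrps34 on chromosome 17 (24895116 to 24897502, build GRCm38), a small-subunit protein added in mitochondria, had the largest rise. It ran at 50.6, 71.9 and 92.3 CPM (lowest, median, highest) in tamoxifen females, against 41.6, 49.9 and 80.9 CPM in vehicle females, a log2 difference of 0.45 ± 0.05 (adjusted p = 2.235e-11), and was higher at all 12 times. Most of its exon bases are shared with other genes, as given above. Mrps23, of the same class, averaged 187 ± 17.6 CPM in tamoxifen females and 143 ± 15.7 CPM in vehicle females (SD, n = 24 each), a log2 difference of 0.39 ± 0.05, also higher at 12 of 12 times. Mrpl54, Mrpl19 and Mrpl20 followed with 0.29 ± 0.06, 0.29 ± 0.04 and 0.28 ± 0.06.

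Mrpl39 was the 1 member that fell in females. Its protein belongs to the large subunit and resembles a tRNA synthetase. It ran at 72.4, 81.0 and 98.0 CPM in tamoxifen females, against 78.6, 94.9 and 104 CPM in vehicle females, and fell by 0.19 on the log2 scale (SE 0.05, adjusted p = 0.001082), lower at 12 of 12 times. Without the libraries over 20 CPM of Myl7, 7 of which were vehicle females, 26 members were higher and 3 lower with tamoxifen in females, against 12.2% and 9.61% of all genes. On the first 24 h alone 21 were higher and 1 lower, against 6.69% and 7.69% of all genes.

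In males the members split. With tamoxifen 20 rose and 34 fell (54 of 77), against 70.0% of all genes called, 32.2% higher and 37.8% lower. The median log2 difference was -0.05 over the members and -0.05 over all tested genes, and the members' summed level was 5242 ± 338 CPM in tamoxifen males and 5374 ± 652 CPM in vehicle males (SD, n = 24 each). The share called, 70.1%, is close to that of all genes. The small-subunit members of bacterial type stood at 1 higher and 10 lower of 17, while the large-subunit members added in mitochondria stood at 8 higher and 8 lower of 21. Large-subunit members of bacterial type were 7 higher and 12 lower of 29, and small-subunit members added in mitochondria 4 higher and 3 lower of 9. Mrps36, which in mammals is a part of the oxoglutarate dehydrogenase complex rather than the ribosome, fell in males by 0.22 and was not called in females (-0.04).

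Mrpl33, a large-subunit protein of bacterial type on chromosome 5 (31596935 to 31664384), had the largest fall in males. It ran at 12.6, 14.8 and 21.3 CPM in tamoxifen males, against 12.4, 24.1 and 36.4 CPM in vehicle males, a log2 difference of -0.55 ± 0.07 (adjusted p = 5.071e-10). The tamoxifen libraries thus overlapped the lower part of the vehicle range. Mrps21 fell by 0.46 (SE 0.06), Mrps18c by 0.45 (SE 0.09), Mrpl23, a protein near the exit tunnel, by 0.41 (SE 0.05), and Mrpl14, the docking site of the assembly factor Malsu1, by 0.41 (SE 0.06). These 4 were lower at 9 to 11 of the 12 times.

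Mrps27, on chromosome 13 (99344786 to 99415562), had the largest rise in males. It ran at 55.2, 71.2 and 84.9 CPM in tamoxifen males, against 24.1, 54.1 and 71.2 CPM in vehicle males, a log2 difference of 0.52 ± 0.06 (adjusted p = 3.877e-11), higher at 12 of 12 times. Mrpl9 rose by 0.46 ± 0.06, Mrps2 by 0.38 ± 0.05, Mrps22, a small-subunit protein in which human mutations cause cardiomyopathy, by 0.37 ± 0.06, and Mrpl10, which anchors the stalk, by 0.37 ± 0.05. These rises were smaller without the 10 high-TEC vehicle male libraries. There Mrps27 differed by 0.24, Mrpl9 by 0.22, Mrps2 by 0.18, Mrps22 by 0.15 and Mrpl10 by 0.17, and the split of all members was 5 higher and 40 lower, with 42.2% of all genes called. Among the falls, Mrpl33 stood at -0.34 and Mrps18c at -0.26 there. With library totals alone for scaling the split was 12 higher and 45 lower, and with a correction for gene length and GC content 30 higher and 29 lower. It was 22 higher and 16 lower on the first 24 h and 7 higher and 37 lower on the second. The shares of all genes for these scalings and days are not given here. Whether these splits set the members apart from all genes was therefore not tested.

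**Figure D4:**
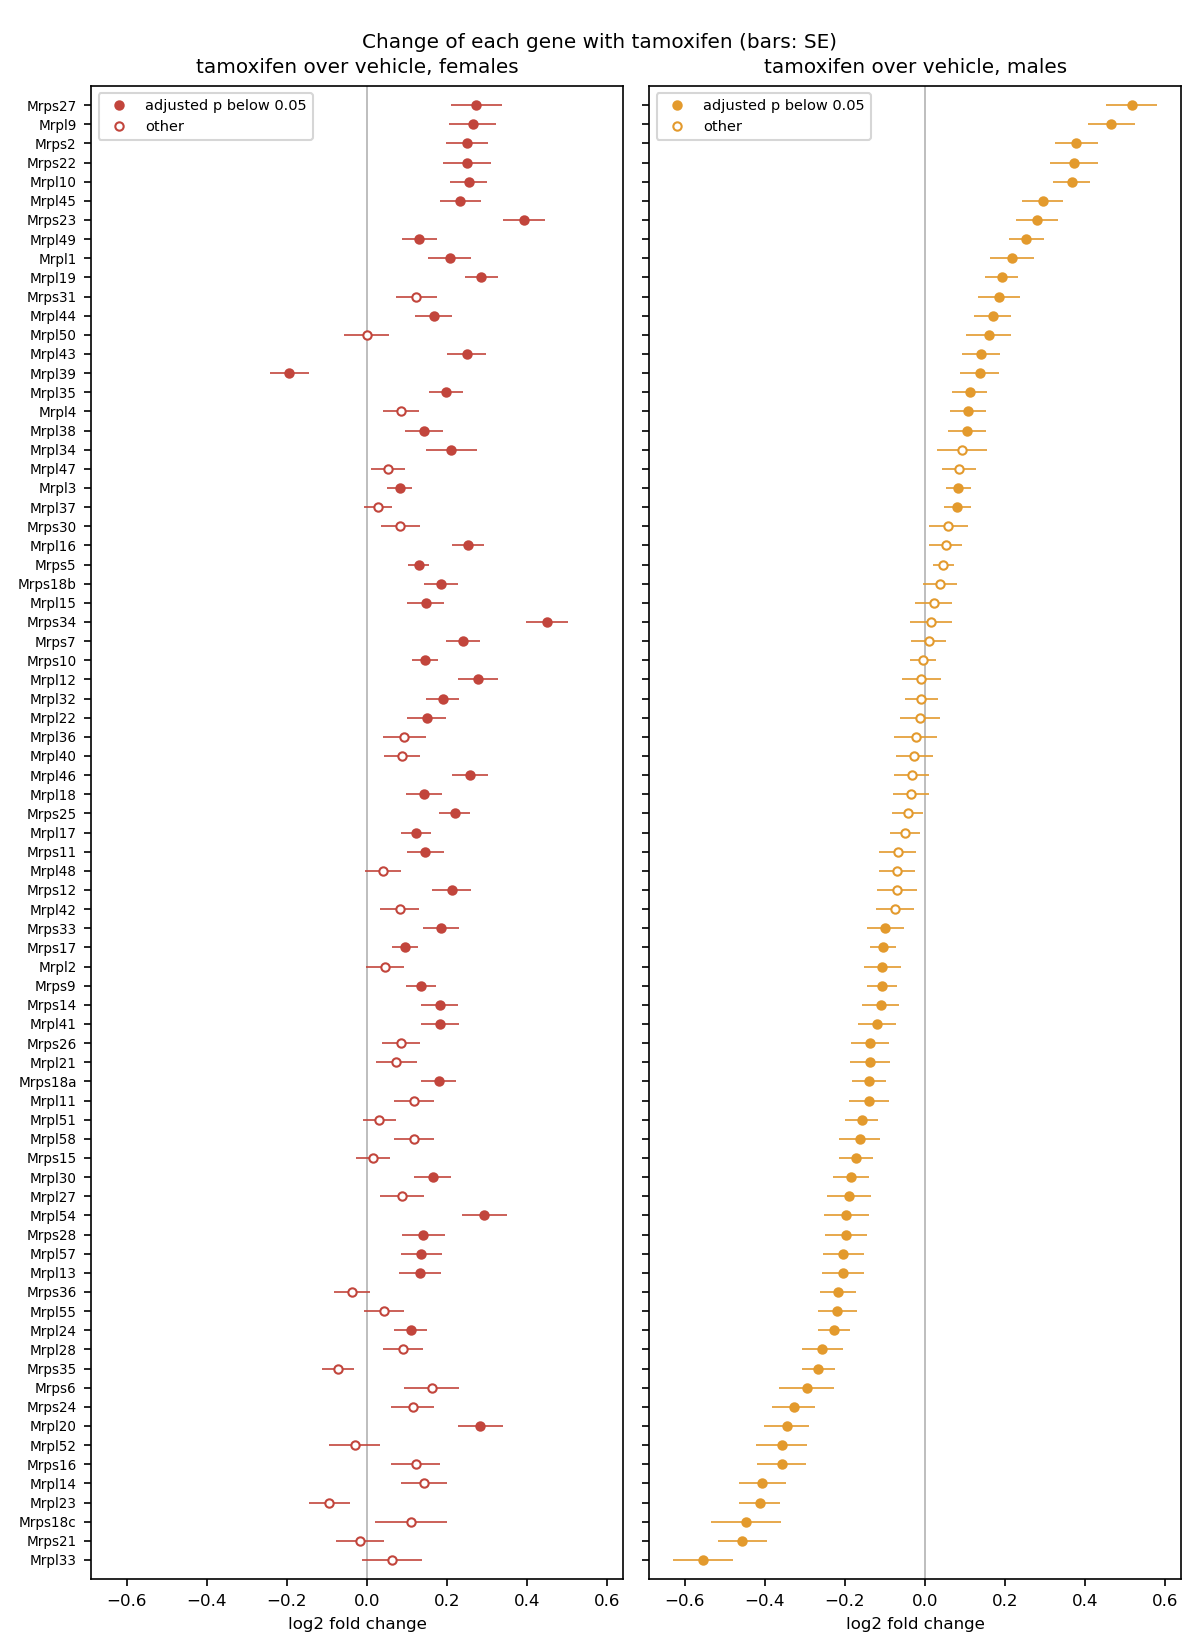
Log2 fold change of each of the 77 members, tamoxifen over vehicle, in females and in males, ordered by the change in males with the largest rise at the top. Bars are SE and filled points had an adjusted p under 0.05; most points are right of 0 in females, while in males they run between 0.52 for Mrps27 and -0.55 for Mrpl33.

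Between the sexes, 15 members rose with tamoxifen in both, which is 33.3% of those that rose in females and 75.0% of those that rose in males. Another 13 rose in females and fell in males, and 0 fell in both. Over all genes 15.2% rose in females, and 32.2% rose and 37.8% fell in males. The overlap of these calls over all genes is not given here. The difference between the sexes in the tamoxifen change was called for 52 members, 49 more positive in females and 3 more negative, against 52.3% of all genes (27.0% more positive, 25.4% more negative). Mrpl20 had the largest, with 0.63 ± 0.08 (adjusted p = 8.423e-09), followed by Mrpl33 with 0.62 ± 0.11, Mrps18c with 0.56 ± 0.13, Mrpl14 with 0.55 ± 0.08 and Mrpl54 with 0.49 ± 0.08. Mrpl39 (-0.33 ± 0.07), Mrps27 (-0.24 ± 0.09) and Mrpl9 (-0.20 ± 0.08) went the other way. Without the high-TEC libraries 63 members were more positive and 1 more negative, against 13.5% and 15.1% of all genes, and Mrps27, Mrpl9 and Mrpl39 stood at 0.03, 0.04 and -0.12. On the first 24 h alone 19 were more positive and 6 more negative, against 19.9% and 20.8% of all genes.

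The sexes differed widely in vehicle hearts and little in tamoxifen hearts. These comparisons share their libraries with the tamoxifen comparisons above. The vehicle groups also differ in the number range of their titles, so sex and that range cannot be told apart there. Counts on the mitochondrial chromosome had median shares of 7.22% in tamoxifen females and 7.21% in vehicle females. In tamoxifen males the median was 7.39%, and in vehicle males 8.37%. In tamoxifen hearts 3 members were called and all 3 were lower in females, against 7.68% of all genes (4.08% higher, 3.6% lower). They were Mrpl28 (-0.18 ± 0.05, adjusted p = 0.01115), Mrps10 (-0.15 ± 0.03, adjusted p = 0.000456) and Mrpl3, in which human mutations cause cardiomyopathy (-0.09 ± 0.03, adjusted p = 0.04345). Mrps10 averaged 25.8 ± 1.5 CPM in tamoxifen females and 28.7 ± 1.81 CPM in tamoxifen males (SD, n = 24 each). Mrpl3 was not called without the library of ct 54 whose sex genes went against its label (adjusted p = 0.0792), and Mrpl28 was not called when the low-Arntl libraries were left out as well (adjusted p = 0.173).

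In vehicle hearts 61 members were called, 3 higher and 58 lower in females, against 68.3% of all genes (31.8% higher, 36.5% lower). The median log2 difference over the members was -0.25, against -0.03 over all tested genes. Mrps18c and Mrpl20 had the largest, with -0.70 ± 0.09 and -0.70 ± 0.06. Mrpl20 ran at 26.7, 32.8 and 61.5 CPM in vehicle females, against 39.4, 58.9 and 86.1 CPM in vehicle males, and was lower in females at 12 of 12 times (adjusted p = 1.053e-18). In tamoxifen hearts the same gene ran at 31.9, 42.8 and 51.7 CPM in females and 36.5, 44.8 and 61.6 CPM in males. Nearly all tamoxifen libraries of both sexes lay between the medians of the vehicle groups.

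Mrpl14 with -0.63 ± 0.06, Mrpl33 with -0.59 ± 0.07 and Mrps34 with -0.53 ± 0.05 came next. The members that were higher in vehicle females were Mrpl39 (0.29 ± 0.05), Mrpl9 (0.17 ± 0.06) and Mrps27 (0.14 ± 0.06). Without the high-TEC libraries 1 member was higher and 75 were lower in females, with 46.7% of all genes called, and Mrpl9, Mrps27 and Mrpl39 stood at -0.07, -0.13 and 0.08. With the length and GC correction 8 were higher and 50 lower, where the shares of all genes are not given here. Of the small-subunit members of bacterial type, 16 of 17 were lower in vehicle females, and of those of the large subunit 22 of 29.

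The members' changes went with the length of their coding sequence in males, and this is a property the choice of members did not use. Coding lengths ran between 261 and 1326 bases. Among the 38 members under the median length, 5 rose and 24 fell with tamoxifen in males, and among the 39 others 15 rose and 10 fell. In females 21 rose and 0 fell among the shorter and 24 rose and 1 fell among the longer members. Across the 77 members, Spearman's rho between coding length and the log2 change was 0.10 in females and 0.57 in males. For the amplitude of the rhythm it was -0.57 in vehicle females and -0.43 in vehicle males. Members share libraries and are not independent replicates. The same relation over all genes is not given here, so it is not shown to be particular to the members.

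The share of all counts in protein-coding genes with under 1500 exon bases differed between the groups and between times. It averaged 7.99% in tamoxifen females, 7.73% in vehicle females, 8.03% in tamoxifen males and 9.88% in vehicle males. In vehicle females it was highest in the pair at ct 42, at 10.3% and 9.49%, where the members' summary level was highest too. In vehicle males the pair at ct 38, with the highest summary level, had 11.4% and 11.8%, but the highest share, 11.96%, was in a library at ct 30 with a summary level of 0.093. A vehicle male library at ct 26 with the lowest summary level, -0.289, had 9.97%, and one at ct 62 with -0.162 had 10.7%. The correction for gene length and GC content used annotated exon length, not coding length, so it does not test the relation to coding length. With it, 46 members were called for a rhythm in vehicle females and 42 in vehicle males, against 51 and 45 without it. In females 44 were higher and 2 lower with tamoxifen after the correction. Shares of all genes with the correction are not given here. The sex difference of Mrpl14 in vehicle hearts was -0.34 with the correction, against -0.63 without, and that of Mrpl20 -0.57, against -0.70. The part of short transcripts in the remaining difference was not tested.

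**Figure D5:**
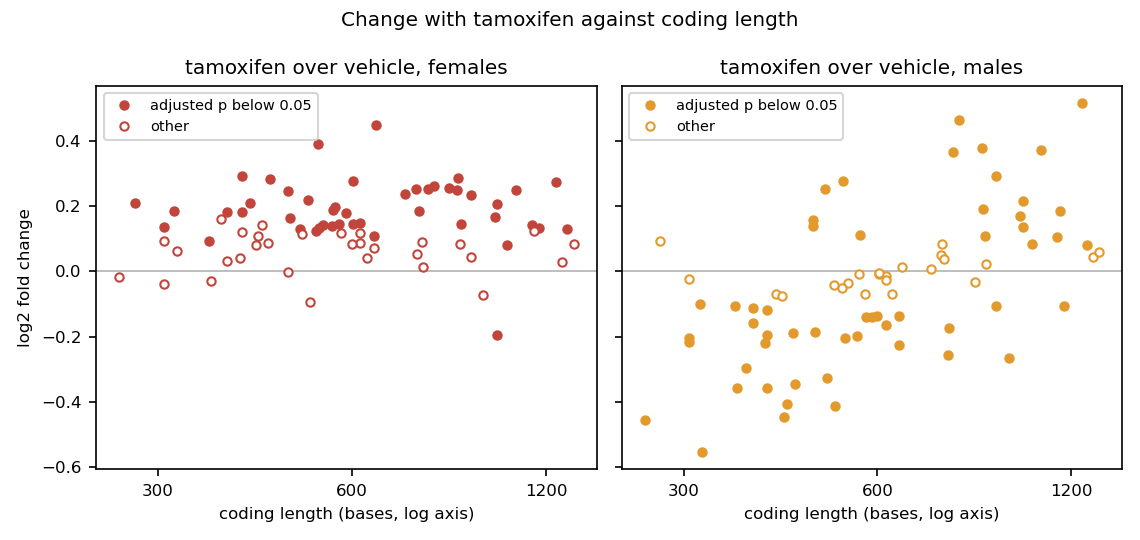
Log2 fold change with tamoxifen, tamoxifen over vehicle, against coding length in bases on a log axis, 1 point per member, in females and in males. Filled points had an adjusted p under 0.05; in males the shorter members lie mostly below 0 and the rises are mostly among longer members, and in females both lie mostly above 0.

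Other genes that build or use the mitochondrial ribosome are given as whole lists. Over all tested genes 15.2% rose and 12.3% fell with tamoxifen in females, and 32.2% rose and 37.8% fell in males. List counts without the high-TEC libraries are not given here. Of 5 ribosome proteins without an Mrp symbol, 4 rose and 0 fell with tamoxifen in females, and 1 rose and 3 fell in males. Ptcd3, an RNA-binding protein of the small subunit, rose by 0.35 ± 0.07 in females and 0.67 ± 0.07 in males, and Chchd1 rose by 0.24 ± 0.06 in females and fell by 0.26 (SE 0.06) in males. Of 23 assembly factors 10 rose and 0 fell in females, and 13 rose and 3 fell in males. Mrm2, which methylates the large mitochondrial rRNA, rose by 0.32 ± 0.06 in females and 0.39 ± 0.06 in males, Mrm3 by 0.20 ± 0.05 in females and Mettl15 by 0.50 ± 0.07 in males.

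Of 15 translation factors 10 rose and 0 fell in females, and 11 rose and 1 fell in males. Taco1, the translational activator of a cytochrome oxidase subunit, rose by 0.40 ± 0.13 in females and 1.34 ± 0.13 in males. Slirp rose by 0.25 ± 0.06 in females and fell by 0.37 (SE 0.06) in males, and the elongation factor Gfm1 rose by 0.61 ± 0.08 in males. Of 17 mitochondrial aminoacyl-tRNA synthetases, which load amino acids onto tRNAs, 8 rose and 0 fell in females, and 16 rose and 0 fell in males. Fars2 (0.19 ± 0.05) and Wars2 (0.19 ± 0.05) led in females, and Nars2 (0.55 ± 0.06) in males.

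Of 10 genes for transcription and replication of mitochondrial DNA, 3 rose and 2 fell in females, and 6 rose and 3 fell in males. Tefm (0.18 ± 0.06) and Tfam (0.18 ± 0.06), which packages mitochondrial DNA, had the largest rises in females, and Tfb2m rose by 0.39 ± 0.07 and Mterf1a fell by 0.41 (SE 0.07) in males. Of 10 regulators of nuclear genes for mitochondria, Gabpa, which binds ETS motifs, fell by 0.15 (SE 0.05) and the coactivator Ppargc1a by 0.21 (SE 0.07) in females, where 0 rose. In males both rose, Gabpa by 0.22 ± 0.05 and Ppargc1a by 0.29 ± 0.07. Of the 10, 6 rose and 2 fell in males, led by Esrrg with 0.60 ± 0.08 and by Myc, which fell by 0.44 (SE 0.11). Tfb2m was not called without the high-TEC libraries (adjusted p = 0.159). Gabpa, Ppargc1a, Tefm, Tfam and Slirp were not called in females without the Myl7 libraries (adjusted p 0.123, 0.0773, 0.067, 0.0599 and 0.0853).

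The mRNAs that the mitochondrial ribosome reads, and the nuclear genes whose proteins join its products, were compared as well. Shares of all genes that rose and fell are those given with the lists above. Of the 13 mitochondrially encoded mRNAs 0 rose and 1 fell with tamoxifen in females, and 3 rose and 5 fell in males. Among them mt-Atp8 fell by 1.39 (SE 0.45) in females and rose by 1.55 ± 0.48 in males, where mt-Nd4l rose by 0.92 ± 0.32, and neither rise was called without the high-TEC libraries (adjusted p 0.169 and 0.678). The fall in females was not called without the Myl7 libraries (adjusted p = 0.0825). Both genes overlap a neighbour on the mitochondrial genome. Of 87 tested nuclear genes of oxidative phosphorylation 31 rose and 1 fell in females, and 6 rose and 64 fell in males. Of 79 cytosolic ribosomal protein genes 6 rose and 1 fell in females, and 0 rose and 76 fell in males.

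Their rhythms can be set beside those of the members. Over all tested genes 17.1% were called in tamoxifen females, 34.5% in vehicle females, 8.03% in tamoxifen males and 55.2% in vehicle males. Of the oxidative phosphorylation genes, 1 was called in tamoxifen females, 69 in vehicle females, 0 in tamoxifen males and 67 in vehicle males. Of the cytosolic ribosomal protein genes 0 were called in tamoxifen females, 71 in vehicle females, 0 in tamoxifen males and 71 in vehicle males. Of the assembly factors 0, 6, 4 and 11 were called in that order, and of the aminoacyl-tRNA synthetases 1, 2, 0 and 6. Whether these lists differ from the members was not tested.

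Markers of other cell types moved in the same comparisons, for which the shares of all genes are given above. Of 7 endothelial markers, 0 rose and 2 fell with tamoxifen in females, and 0 rose and 7 fell in males, with sums of 712 to 1059 CPM in tamoxifen females, 817 to 1265 CPM in vehicle females, 740 to 1190 CPM in tamoxifen males and 854 to 2306 CPM in vehicle males. Of 7 fibroblast markers 5 rose and 0 fell in females and 0 rose and 1 fell in males, with sums of 913 to 1872 CPM in tamoxifen females, 923 to 1601 CPM in vehicle females, 850 to 1702 CPM in tamoxifen males and 871 to 1704 CPM in vehicle males. Of 6 macrophage markers 0 rose and 5 fell in females and 0 rose and 2 fell in males. Of 4 mural markers 0 and 1 fell in females and males, of 3 tested lymphocyte markers 0 and 3, of 3 erythroid markers 0 and 1 and of 3 tested atrial markers 2 and 0, with no rise in any of these. Of the 8 cardiomyocyte markers 2 rose and 0 fell in females and 5 rose and 3 fell in males. The part of these cells in the members' changes was not tested.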

How the data were processed

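Gene counts of 96 ventricle libraries were used. Values in the deposited table are raw gene counts, which the authors did not normalize. In the submitters' processing notes stand HISAT2, Picard and HTSeq, with the builds GRCm38 and mm10 and with versions not given in the sources used here. Per the labels' protocols, RNA was poly-A selected and sequenced on a NovaSeq. All 96 columns matched 1 library title each.

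Analysis used R 4.3.3, edgeR 4.0.16, limma 3.58.1 and DESeq2 1.42.0. Genes were kept by filterByExpr (minimum count 10), scaled by TMM and fitted in 1 quasi-likelihood model with a mean, cosine and sine (24 h period) per group, giving 12 coefficients and leaving 84 residual degrees of freedom. A further model added 12 h terms. P-values were adjusted over all 15629 tested genes by Benjamini-Hochberg, and a call is an adjusted p under 0.05. CPM of members are TMM-scaled, but raw in the membership rule, for Arntl, Xist, Ddx3y and Myl7 and in RPKM. The code was tested on simulated counts. The 48 library pairs of one group and time had chi-square values per gene of 3.86 to 99.6 over genes with at least 20 counts, so none was counted as a duplicate.

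Members, lists and tests were chosen with earlier results of these data known. Named genes are, per mean comparison, the 5 called members of largest rise and of largest fall, per 24 h rhythm the 5 of largest amplitude, per rhythm difference the 3 of largest vector, the extremes of level per length and of the CPM threshold, and per list at most 2 called genes per tamoxifen comparison. Other genes are named for annotation or promoter content. Alternatives were other scalings, filters and tools, a length and GC correction, and leaving out times, days or libraries.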

Additional observations from a re-analysis of the deposited data

Results flagged for a closer look

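The difference between the sexes in the tamoxifen change was itself past the threshold for 52 of 77 members, where 52.3% of all genes passed it. Among the named members, it was 0.63 for Mrpl20, 0.62 for Mrpl33, 0.56 for Mrps18c, 0.55 for Mrpl14 and 0.49 for Mrpl54, all more positive in females on the log2 scale. It was -0.33 for Mrpl39, -0.24 for Mrps27 and -0.20 for Mrpl9.

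The 24 h rhythm differed between vehicle females and vehicle males for 42 of 77 members and for 37.4% of all genes. The vector length of that difference was 0.66 for Mrps18c, 0.60 for Mrpl33 and 0.49 for Mrpl52.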

How the results depend on the processing

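Of 374 recomputed counts of called members, 326 were within 1.5 times the reported count and 48 were not. Of 2014 recomputed values of named genes, 1867 kept direction and call, 143 lost the call and 4 reversed. The 4 were Mrpl9 and Mrps27 without the high-TEC vehicle male libraries, at -0.07 and -0.13 for females minus males in vehicle hearts and at 0.04 and 0.03 for the difference in the tamoxifen change. The causes below were not tested. Counts below are of members alone. The share of all genes called also moved between settings, as given above for some of them. Whether a change in these counts is particular to the members was not tested.

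On the first 24 h, called members numbered 1 for the rhythm in tamoxifen males, 0 in vehicle females, 70 in vehicle males, 52 for the rhythm change in males, 22 for the rhythm difference in vehicle hearts, 22 for tamoxifen in females, 1 for sex in tamoxifen hearts and 25 for the sex difference in the tamoxifen change. On the second 24 h they were 0 for the rhythm in tamoxifen males, 6 in vehicle males, 0 for the rhythm change in males and 0 for sex in tamoxifen hearts. These series hold fewer libraries.

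Without the high-TEC libraries they were 3 for the 12 h rhythm in vehicle males, 1 for the rhythm in tamoxifen females, 8 for sex in tamoxifen hearts and 13 for the rhythm change in males. Without the Myl7 libraries they were 0 for the rhythm in tamoxifen males, 16 for the rhythm change in females and 29 for tamoxifen in females. Without the low-Arntl libraries and that of ct 54 with discordant sex genes they were 0 for the rhythm in tamoxifen males and 1 for sex in tamoxifen hearts. With the length and GC correction they were 1 for the rhythm in tamoxifen females, 1 in tamoxifen males, 1 for the rhythm change in females and 7 for sex in tamoxifen hearts. The rhythm change in males had 42 with library totals alone and 14 with no filter on low counts, where tamoxifen males had 0 rhythmic members. With a mean per group and time, sex in tamoxifen hearts had 6.

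Leaving out each time in turn gave 36 to 48 for tamoxifen in females, 47 to 53 in males, 1 to 4 for sex in tamoxifen hearts, 56 to 62 in vehicle hearts and 45 to 54 for the sex difference in the tamoxifen change. It gave 0 to 1 for the rhythm in tamoxifen females, 13 to 56 in vehicle females, 0 to 2 in tamoxifen males, 37 to 51 in vehicle males, 0 to 0 for the rhythm change in females, 12 to 36 in males, 25 to 59 for the rhythm difference and 0 to 3 for the 12 h rhythm in vehicle males. The lowest counts came without ct 42 for vehicle females (13) and the rhythm difference (25), and without ct 38, ct 22 or ct 34 for the rhythm change in males (12, 13 and 14). No paired analysis was possible because the groups share no replicate numbers. Rhythms were not run in DESeq2.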
